A study of Mus musculus with 14 samples.

Results

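Lin28b, Igf2bp1, Igf2bp3 and Hmga2 code for proteins of a fetal growth programme, and their chromatin was described in neural stem cells that carry a tagged histone H3.3. The genes were chosen with the differences between the K27M-Tag and WT-Tag peak lists already known, so every contrast of these groups at the 4 genes is a description and carries no test. Members were all peaks overlapping 4 windows of build mm9. The windows run from 45080000 to 45210000 on chromosome 10 for Lin28b, from 95810000 to 95880000 on chromosome 11 for Igf2bp1, from 49025000 to 49175000 on chromosome 6 for Igf2bp3, and from 119790000 to 119925000 on chromosome 10 for Hmga2. Gene and exon ends were not placed in mm9, so the promoter end means the high-coordinate end of a window. The windows held 370 of the 557412 peaks in 12 lists. Of these, 71 came from the H3K4me3 lists of K27M-Tag, 52 from those of WT-Tag, 180 from the FLAG lists of K27M-Tag and 67 from those of WT-Tag.

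The cells were neurospheres, floating clusters of neural precursors, grown from the hindbrain of e15.5 mouse embryos. All 6 cultures carried Nestin-cre, which removes a stop cassette in neural progenitors, and 1 allele of H3f3a, a gene for H3.3, that is then read as a tagged protein. The full genotype was Nestin-cre; H3f3aLSL-K27M-Tag/+ in 3 cultures and Nestin-cre; H3f3aLSL-WT-Tag/+ in the other 3, so the controls also express a tagged histone. Each culture gave 1 ChIP-seq library with an antibody against FLAG and 1 against H3K4me3. The other H3f3a allele was left in place, and a culture without a tag was not analysed here, so the level that the FLAG antibody gives without its target is not known. WT-Tag replicate 3 was labelled male and the other 5 cultures female. The labels name 6 cultures and do not say how many embryos they came from.

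H3K4me3, trimethylation of lysine 4 of histone H3, marks the promoters of active and poised genes, and long stretches of it are typical of strongly expressed genes of cell identity. The FLAG antibody reports where the tagged H3.3 sits, and H3.3 is placed at active promoters, enhancers and transcribed gene bodies. The K27M substitution is the driver mutation of diffuse midline gliomas, where it lowers trimethylation of lysine 27, a mark of silent genes. Lin28b binds precursors of the let-7 microRNAs and blocks their maturation. Igf2bp1, Igf2bp3 and Hmga2 are classical targets of let-7, and all 4 genes are on in fetal tissue and mostly off in the adult.

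All 4 genes are read from the minus strand, so their promoters lie at the high-coordinate end of each window. The RefSeq promoter table for build GRCm38.p6 matched 3 of the 4 genes. The 250 bases before the start of each are printed, 5′ to 3′ on the minus strand of the gene, because H3K4me3 follows CpG-rich promoters and the 3 sequences differ in how many CG pairs they hold. Capitals mark CG. The positions are chr10:45470202-45470451 for Lin28b, chr6:49214955-49215204 for Igf2bp3 and chr10:120476470-120476719 for Hmga2, all in GRCm38.p6, and where they fall in mm9 was not determined.
Lin28b: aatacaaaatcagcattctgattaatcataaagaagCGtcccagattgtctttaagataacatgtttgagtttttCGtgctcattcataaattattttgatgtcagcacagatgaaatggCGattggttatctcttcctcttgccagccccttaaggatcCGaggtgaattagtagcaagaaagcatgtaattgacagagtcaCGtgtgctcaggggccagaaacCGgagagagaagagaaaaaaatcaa
Igf2bp3: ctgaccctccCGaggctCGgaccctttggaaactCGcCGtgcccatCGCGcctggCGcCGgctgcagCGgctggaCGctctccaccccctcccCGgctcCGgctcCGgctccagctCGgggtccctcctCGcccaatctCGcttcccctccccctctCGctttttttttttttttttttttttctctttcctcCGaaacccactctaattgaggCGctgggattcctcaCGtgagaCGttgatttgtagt
Hmga2: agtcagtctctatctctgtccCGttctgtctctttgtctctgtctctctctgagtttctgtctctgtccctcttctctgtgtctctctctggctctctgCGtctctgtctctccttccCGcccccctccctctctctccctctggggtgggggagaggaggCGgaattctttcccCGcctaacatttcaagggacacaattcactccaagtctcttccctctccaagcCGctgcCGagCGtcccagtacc

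The Lin28b promoter held 6 CG pairs at a GC content of 39.2%, and 49.6% of the 32851 promoters in the table held fewer. Igf2bp3 held 21 CG pairs at 60.4% GC, more than 83.7% of promoters. Hmga2 held 8 at 56.4% GC, more than 57.0% of promoters. The median promoter held 6 CG pairs at 52.4% GC. By the count of CG pairs in these 250 bases, Lin28b and Hmga2 lay near the middle of all promoters and Igf2bp3 was CG-rich. By GC content Lin28b was low, with 10.3% of promoters lower. The letters CACGTG, which read the same on both strands and hold 1 CG pair, occurred 1 time each in the sequences of Lin28b and Igf2bp3, 0 times in that of Hmga2, and in 6.02% of all promoters.

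The first measure was the number of bases in a window that lie under a called peak. Under H3K4me3, the Lin28b window held 8911, 8128 and 8420 bases in K27M-Tag replicates 1, 2 and 3, against 1592, 2096 and 1669 in the same order in WT-Tag. The means were 8486 ± 396 and 1786 ± 272 (SD, n = 3), and K27M-Tag was 4.75-fold higher. Igf2bp1 held 6798, 6756 and 6831 bases in K27M-Tag, and no H3K4me3 peak in any WT-Tag list. It was the one window of the 4 with H3K4me3 in a single genotype. Igf2bp3 held 14288, 13872 and 14597 bases in K27M-Tag, against 8524, 9908 and 8072 in WT-Tag, a 1.61-fold difference in the means. Hmga2 held 8364, 9048 and 8624 bases in K27M-Tag, against 5521, 8687 and 7522 in WT-Tag. The Hmga2 ranges overlapped, because WT-Tag replicate 2 had more bases than K27M-Tag replicates 1 and 3. Over the whole lists H3K4me3 peaks covered 43.9 ± 1.69 Mb in K27M-Tag and 37.6 ± 1.52 Mb in WT-Tag (SD, n = 3), a ratio of 1.17, to which the Hmga2 ratio of 1.20 was close. The genotypes thus stood apart in 3 of 4 windows. Of all single H3K4me3 regions, 29.3% had more bases in every K27M-Tag list than in any WT-Tag list. That share is not one for windows of this length, which was not computed, and the whole-list totals did not overlap either.

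FLAG peaks separated the genotypes in all 4 windows. Hmga2 held 20149, 14891 and 18851 bases in K27M-Tag, against 1444, 4405 and 4385 in WT-Tag. Its means of 17964 ± 2739 and 3411 ± 1704 (SD, n = 3) differed 5.27-fold. Igf2bp3 held 16286, 12971 and 18401 bases in K27M-Tag, against 3308, 7005 and 7578 in WT-Tag, a ratio of 2.66. The Igf2bp3 ratio was near that of the whole lists, where FLAG peaks covered 42.0 ± 9.34 Mb in K27M-Tag and 16.5 ± 4.62 Mb in WT-Tag (SD, n = 3), a ratio of 2.55. Lin28b held 2662, 1818 and 3548 bases in K27M-Tag, and Igf2bp1 held 1484, 2419 and 2948. Neither had a FLAG peak in any WT-Tag list. Over all single FLAG regions, 23.1% had more bases in every K27M-Tag list than in any WT-Tag list. Here too the share for whole windows was not computed, and the whole-list totals did not overlap. The plot of bases by window shows the order of the genes under each antibody, which was not the same. Igf2bp3 had the most H3K4me3, while Lin28b, with about as much H3K4me3 as Hmga2 in K27M-Tag, had about as little FLAG as Igf2bp1.

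**Figure D1:**
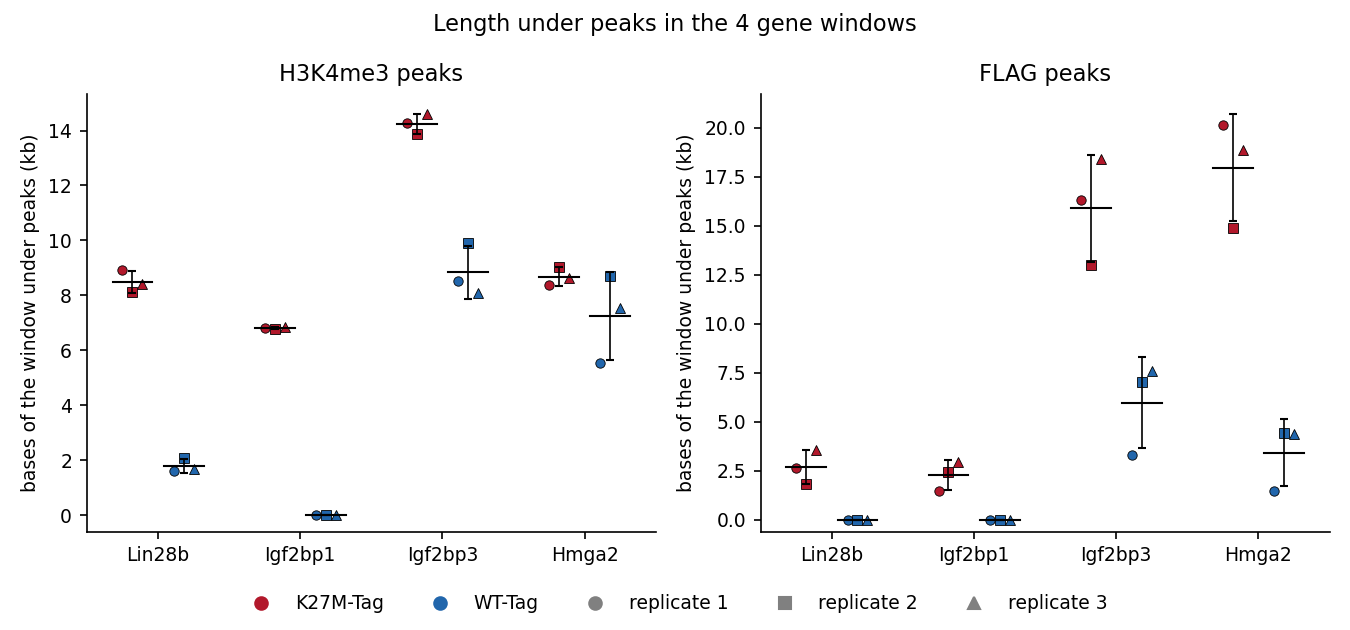
Bases under H3K4me3 peaks (left) and FLAG peaks (right) in the windows of the 4 genes, in kb. Points are cultures, lines means and bars SD (n = 3); the genotypes overlap for Hmga2 under H3K4me3 and for no other gene and antibody.

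Peaks of the same antibody were then merged across its 6 libraries into regions wherever they shared at least 1 bp. The 4 windows held 27 H3K4me3 regions, of which 7 had a peak in 3 of 3 K27M-Tag lists and 0 of 3 WT-Tag lists. Over the genome 1861 of 42711 H3K4me3 regions did so, or 4.36%. No region of the 4 genes showed the reverse, and 0.26% of all regions did. By covered bases, 15 of the 27 were higher in K27M-Tag without overlap and 0 were lower, against 29.3% and 1.6% of all regions. Igf2bp1 had 3 of the 7, Lin28b 2, Igf2bp3 1 and Hmga2 1. For FLAG, 18 of 85 regions had peaks in the 3 K27M-Tag lists alone, against 11656 of 117816, or 9.89%, over the genome. Igf2bp3 and Hmga2 had 6 of these each, and Lin28b and Igf2bp1 3 each. None was found in the WT-Tag lists alone, as 0.585% of all FLAG regions were. By covered bases, 28 of the 85 were higher in K27M-Tag without overlap and 0 were lower, against 23.1% and 1.05%. Of the 85 FLAG regions, 58 had no WT-Tag peak and 9 had no K27M-Tag peak. Those 9 were all in the Igf2bp3 window, and each had a peak in 1 or 2 WT-Tag lists. The shares of all FLAG regions that lack a peak in either genotype were not computed, so neither count can be called high or low. Since the genes were chosen on this contrast, the counts say where the separate regions lie and nothing more.

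Height was measured as the number of fragments piled up at a peak summit, divided by the background coverage of the library, both recovered from the deposited fold and p. A height of 10 is thus 10 times background. WT-Tag H3K4me3 lists called no peak lower than 3.81 to 4.14 at their usual background, and WT-Tag FLAG lists none lower than 3.48 to 3.88. Below these heights signal would not be listed, and where local background is raised the limit is higher. At the 22592 H3K4me3 regions in all 6 lists the median ratio of heights, K27M-Tag over WT-Tag, was 1.25, so that ratios at single genes are read against that shift.

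Lin28b, the gene of the let-7 blocker, had 5 H3K4me3 regions, of which 4 were in every K27M-Tag list and 1 in K27M-Tag replicate 3 alone. The longest region, chromosome 10 from 45187192 to 45191449, had 4258, 3750 and 3731 bases in K27M-Tag and no peak in WT-Tag. Its height was 49.6, 55.2 and 46.8, and its summits lay within 29 bp of each other. Among the 1861 regions found in K27M-Tag lists alone it ranked 2 by bases and 2 by height, where the median region had 357 bases and a height of 6.56. A smaller region 3962 to 3975 bp upstream, from 45192790 to 45194044, had heights of 27.6, 32.8 and 30.3 and ranked 5 by height. It too was absent from the WT-Tag lists. Lin28b thus held 2 of the 5 tallest regions of this class.

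The other 2 of those 4 regions were marked in both genotypes. The most upstream one, from 45204710 to 45207050, lay 16169 to 16190 bp above the main summit. It held 2341, 2227 and 2133 bases in K27M-Tag, against 1168, 1496 and 1165 in WT-Tag. Its height was 54.7, 71.7 and 56.3 in K27M-Tag, against 21.5, 23.1 and 26.2 in WT-Tag. The 2.58-fold difference lies above the 95th percentile of 1.65 over all regions in 6 lists. The local background there was also higher in K27M-Tag, at 4.66 to 6.20 fragments per base, than in WT-Tag, at 2.89 to 3.24, so a fold over local background differs less there than the height. In the downstream part of the window, the region from 45165819 to 45166998 had 1180, 1066 and 1002 bases in K27M-Tag, against 424, 600 and 504 in WT-Tag. Its height was 30.7 ± 3.82 and 14.6 ± 4.19 (SD, n = 3), 2.10-fold apart. In WT-Tag cultures Lin28b therefore had H3K4me3 peaks at its most upstream and most downstream shared regions and none at its longest one.

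FLAG at Lin28b lay beside the H3K4me3 summits, except at the downstream region from 45165819 to 45166998. There FLAG covered the H3K4me3 summit in K27M-Tag replicate 3, with its own summit 30 bp away. In K27M-Tag replicates 1 and 2 the nearest FLAG summit to that region's summit was 22684 and 22292 bp away. A FLAG region from 45188743 to 45189227 held 264, 290 and 409 bases in K27M-Tag, with its summit 753 to 786 bp downstream of that of the main H3K4me3 region. The region from 45192482 to 45193421 held 885, 860 and 890 bases, with heights of 9.18, 5.99 and 9.16. At the upstream end, from 45206391 to 45207315, FLAG held 701, 438 and 925 bases, and its summit was 724 to 854 bp above the H3K4me3 summit. FLAG covered the H3K4me3 summit of the main and the upstream region in 0 of 3 cultures each. Over all H3K4me3 peaks that touch a FLAG peak in K27M-Tag, 62.1% to 71.3% had FLAG over the summit, and the nearest FLAG summit was a median of 213 to 261 bp away.

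Igf2bp1 codes for an RNA-binding protein that binds fetal messages, Myc and Igf2 among them. Its main H3K4me3 region, chromosome 11 from 95864416 to 95869617, held 5185, 5144 and 5166 bases in K27M-Tag, a spread of 20.5 (SD, n = 3) around 5165. It was the longest of the 1861 regions found in K27M-Tag alone and ranked 3 by height, at 48.7, 51.6 and 40.0. Its score placed it above 68.8% to 69.2% of the peaks of the same list, so it was a peak of middling rank there. A flanking region from 95863286 to 95864322 held 853, 953 and 1037 bases, and a region further from the promoter end, from 95852544 to 95853255, held 468, 369 and 628. Their mean heights of 8.45 and 7.27 ranked 231 and 544 in the class. No place in the window had a WT-Tag peak of either antibody.

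Above the Igf2bp1 window the genotypes stood apart at the nearest FLAG region and not at the nearest H3K4me3 region. That H3K4me3 region, from 95895304 to 95897278, was in all 6 lists with means of 1677 bases in K27M-Tag and 1653 in WT-Tag. The FLAG region, from 95889988 to 95891297, was again in the 3 K27M-Tag lists alone. Below the window the nearest H3K4me3 region, from 95737369 to 95737595, was in 2 K27M-Tag and 0 WT-Tag lists. Within the window, FLAG over the promoter-side end of the main region, from 95868489 to 95869053, held 472, 499 and 462 bases at heights of 5.70, 5.69 and 7.77. A pair of FLAG regions deeper in the window, from 95849942 to 95850329 and from 95850363 to 95851265, held 364, 221 and 349 and 237, 526 and 903 bases. The H3K4me3 summit of the main region moved by 1815 bp between cultures, and FLAG covered it in the 2 cultures where it lay at the promoter side.

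Igf2bp3, a relative of Igf2bp1 that is expressed in the embryo and in many tumours, had the longest H3K4me3 domain of the 4 genes. Its main region, chromosome 6 from 49159949 to 49170557, held 10530, 10466 and 10609 bases in K27M-Tag, against 7022, 7479 and 6435 in WT-Tag. By K27M-Tag length it ranked 33 among 42711 regions. In K27M-Tag it was called as 1, 2 and 1 peaks, and in each WT-Tag list as 5 peaks with a widest gap of 866, 769 and 1141 bp. The K27M-Tag peaks also ended 1756 to 1928 bp further upstream than the WT-Tag peaks. The summit sat at the same place in all 6 lists, between 49163666 and 49163729. Both genotypes thus had the domain, and it was longer and less interrupted in K27M-Tag.

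The Igf2bp3 summit height was 80.8, 88.0 and 63.1 in K27M-Tag, against 45.7, 61.1 and 50.6 in WT-Tag. The ratio of 1.47 lies within the 5th to 95th percentile range of 0.957 to 1.65 over regions in all 6 lists. Local background at this summit was similar in the genotypes, at 3.11 to 3.92 and 3.27 to 4.06 fragments per base. Smaller regions flanked the domain. The 2 downstream regions, from 49156176 to 49157101 and from 49158173 to 49159248, held 2.16-fold and 2.61-fold more bases in K27M-Tag. The upstream one, from 49171881 to 49172312, had 284, 317 and 404 bases in K27M-Tag and no WT-Tag peak. Above the window edge, from 49177162 to 49177711, lay another H3K4me3 region with peaks in 3 K27M-Tag and 0 WT-Tag lists. At the opposite edge of the window the region from 49023172 to 49025370 held 2073 ± 51.2 and 2063 ± 61.0 bases (SD, n = 3), an overlap of the genotypes within the same window.

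FLAG at Igf2bp3 lay at the promoter end and in blocks further into the window. Inside the main region it held 4402, 3983 and 4450 bases in K27M-Tag, against 320, 0 and 835 in WT-Tag. Of the 3 FLAG regions there found in K27M-Tag alone, 1 lay at each end of the domain and 1, from 49163841 to 49164726, beside its summit. From 49159977 to 49161548 FLAG held 1273, 1214 and 1441 bases, and from 49169817 to 49170623 it held 775, 773 and 704. The latter is the stretch that H3K4me3 reached in K27M-Tag and not in WT-Tag. Near the low-coordinate end of the window, from 49045977 to 49049325, FLAG was in all 6 lists with 2580, 3142 and 2831 bases in K27M-Tag, against 1835, 2625 and 2438 in WT-Tag. The covered bases of the genotypes overlapped there, and the heights did not, at 14.9, 12.6 and 13.6 in K27M-Tag, against 9.71, 11.0 and 8.71 in WT-Tag. In the WT-Tag lists these were the tallest FLAG summits of the window.

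**Figure D2:**
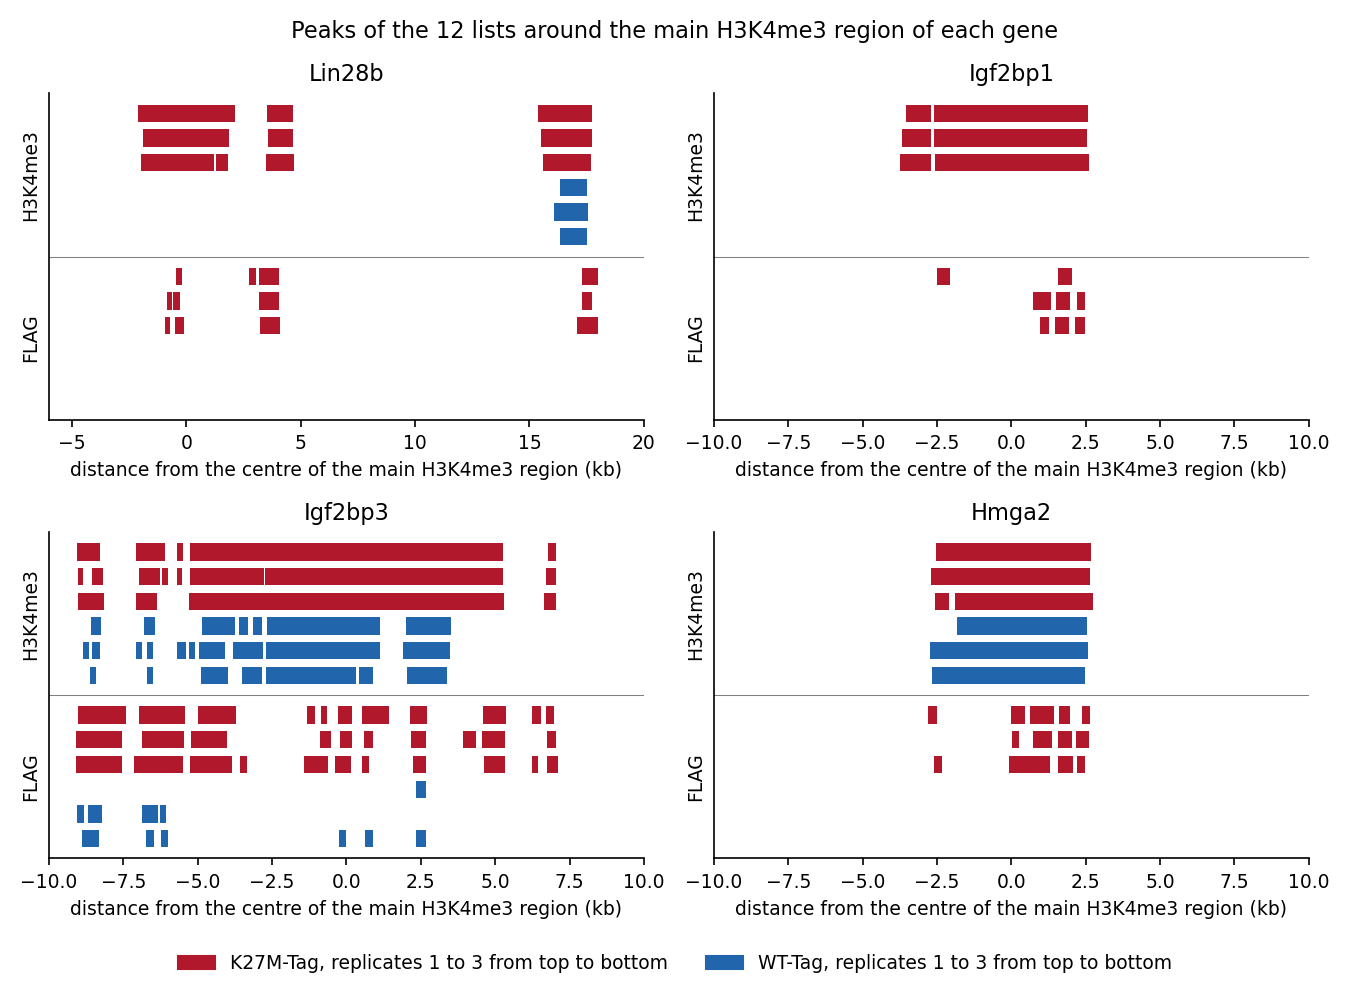
Peaks of the 12 lists around the main H3K4me3 region of each gene, with distance from its centre in kb; upstream is to the right. Bars are called peaks, one row per culture; WT-Tag rows are empty at Igf2bp1, hold 1 H3K4me3 peak each in the plotted part of Lin28b, are broken at Igf2bp3, and match K27M-Tag under H3K4me3 at Hmga2 while FLAG is seen in K27M-Tag alone.

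Hmga2, an architectural protein that bends AT-rich DNA and keeps stem cells dividing, had a main H3K4me3 region of similar length in both genotypes. Its main H3K4me3 region, chromosome 10 from 119910271 to 119915764, held 5218, 5367 and 5118 bases in K27M-Tag, against 4369, 5337 and 5152 in WT-Tag. The means of 5234 ± 125 and 4953 ± 514 (SD, n = 3) lay within the spread of the cultures. Summit height was 89.2, 95.9 and 75.7 in K27M-Tag, against 49.9, 73.2 and 63.6 in WT-Tag. These ranges did not overlap. The ratio of 1.40 lies above the median of 1.25 over regions in all 6 lists and below their 95th percentile of 1.65. Local background at the summit was 3.50 to 3.92 fragments per base in K27M-Tag and 4.10 to 5.70 in WT-Tag, so a fold over local background stands further apart there than the height.

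FLAG over the same region was listed in K27M-Tag alone. Inside the main H3K4me3 region it held 2144, 1809 and 2420 bases in K27M-Tag and 0 in the 3 WT-Tag lists. The largest FLAG region, from 119912938 to 119914458, held 1255, 910 and 1395 bases at heights of 11.4, 8.99 and 10.5, and ranked 134 by height among the 11656 FLAG regions of its class. FLAG covered the H3K4me3 summit in 3 of 3 K27M-Tag cultures, with the nearest FLAG summit 54 to 870 bp away. In the WT-Tag cultures the nearest FLAG summit was 44063 to 47039 bp away, further into the window. A region of similar H3K4me3 length in both genotypes thus had listed FLAG in one.

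Most FLAG at Hmga2 lay away from the promoter end. The other windows also had most of their K27M-Tag FLAG bases outside the main H3K4me3 region, on average. These were 2199 of 2676 bases at Lin28b, 1173 of 2284 at Igf2bp1 and 11608 of 15886 at Igf2bp3. Outside its main H3K4me3 region the Hmga2 window held 15839 ± 2514 bases in K27M-Tag and 3411 ± 1704 in WT-Tag (SD, n = 3), a ratio of 4.64. The most downstream block, from 119811769 to 119816907, held 4324, 4053 and 4536 bases in K27M-Tag, against 0, 868 and 1100 in WT-Tag, and had the tallest FLAG summits of the gene in K27M-Tag, at 13.8 to 16.9. A pair of blocks in the middle were in all 6 lists. The block from 119859008 to 119861627 held 2529, 2435 and 2448 bases in K27M-Tag, against 906, 1605 and 1542 in WT-Tag. The block from 119862867 to 119867730 held 3624, 3836 and 4474 and 538, 1189 and 1151. WT-Tag cultures thus had FLAG at the same places, in shorter peaks, and WT-Tag replicate 1 had the least in both blocks.

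Some of these blocks carried H3K4me3 as well. The region from 119865270 to 119866641 held 1256, 1321 and 1294 H3K4me3 bases in K27M-Tag, against 529, 1167 and 1210 in WT-Tag. Its height was 17 ± 0.42 and 14.5 ± 1.22 (SD, n = 3). At the most downstream block, the H3K4me3 region from 119814208 to 119814593 had 326, 382 and 361 bases in K27M-Tag and no WT-Tag peak, at a height of 8.65. FLAG covered its summit in every K27M-Tag culture. These were low peaks beside the main region, whose mean height was 86.9 in K27M-Tag.

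**Figure D3:**
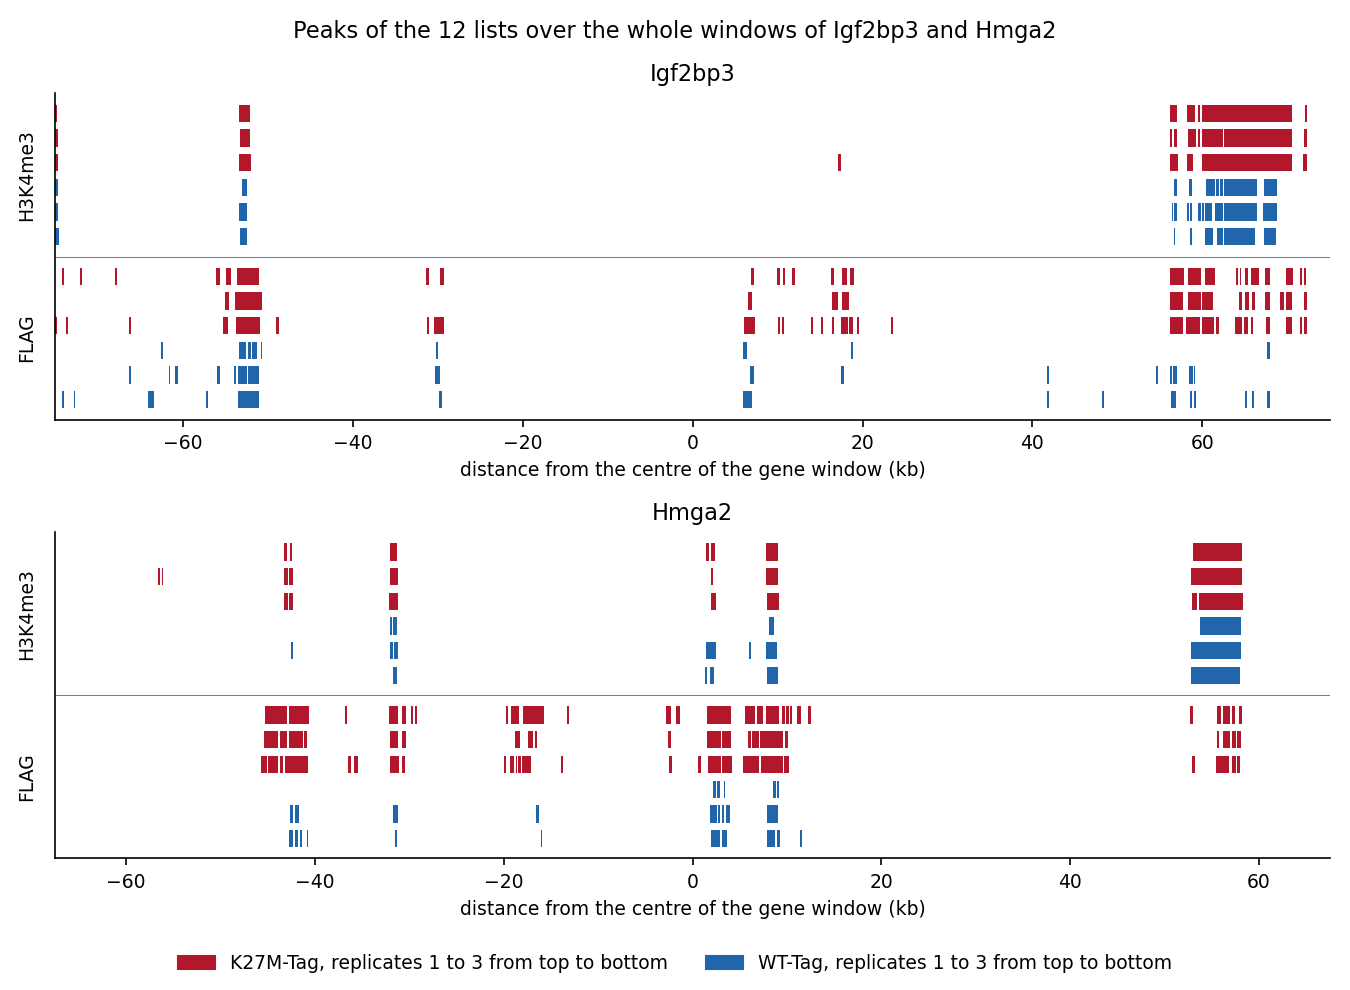
Peaks of the 12 lists over the whole windows of Igf2bp3 and Hmga2, with distance from the window centre in kb; the promoter end is to the right. Each row is a culture; H3K4me3 lies mostly at the promoter end, the FLAG blocks of the Hmga2 window are longer in K27M-Tag, and at the block near the left end of Igf2bp3 the covered bases overlap (2580 to 3142 bases in K27M-Tag, 1835 to 2625 in WT-Tag).

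Of the H3K4me3 summits that lie inside the windows, the tallest in K27M-Tag had heights of 86.9 ± 10.3 at Hmga2, 77.3 ± 12.8 at Igf2bp3, 60.9 ± 9.43 at Lin28b and 46.7 ± 6.02 at Igf2bp1 (SD, n = 3). This leaves out the region at the low edge of the Igf2bp3 window, from 49023172 to 49025370, whose summit lies below the window. That region was taller than any of these in WT-Tag, with heights of 65.5, 89.1 and 78.7, and had 90.4, 103.1 and 77.7 in K27M-Tag, so that its ranges overlapped. Neighbours in the order of the 4 genes were separated by less than the sum of their SDs. In WT-Tag the order was the same, with 62.2 ± 11.7 at Hmga2, 52.5 ± 7.85 at Igf2bp3, 23.6 ± 2.42 at Lin28b and no peak at Igf2bp1. There the step from Hmga2 to Igf2bp3 was smaller than the sum of their SDs, and the step from Igf2bp3 to Lin28b was larger than theirs. FLAG summits were far lower, with the tallest at 15.4 ± 1.57 at Hmga2 and 14.0 ± 1.21 at Igf2bp3 in K27M-Tag (SD, n = 3). Lin28b reached 9.18, 7.19 and 9.16 and Igf2bp1 8.86, 7.19 and 7.77. The 2 genes with the lower H3K4me3 in WT-Tag were also the 2 with the lower FLAG in K27M-Tag, a description of 4 genes.

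**Figure D4:**
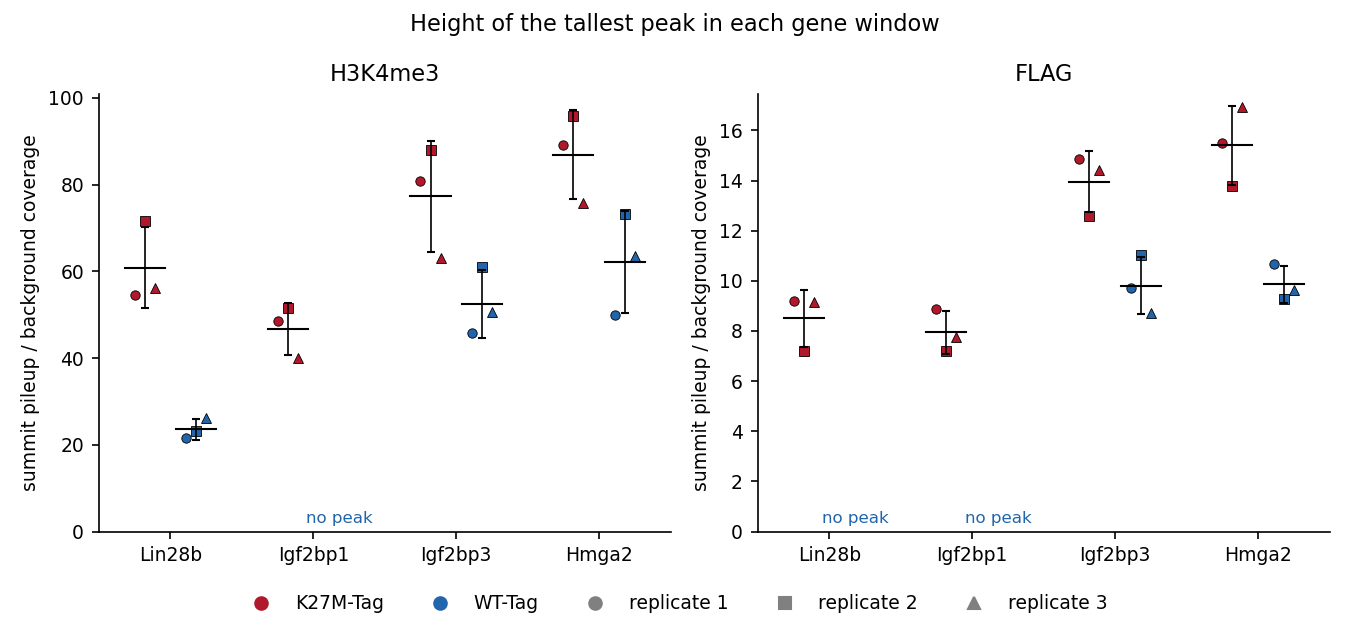
Height of the tallest H3K4me3 (left) and FLAG (right) summit inside each window, as multiples of the library's background coverage; the Igf2bp3 edge region, whose summit lies below the window, is left out. Points are cultures, lines means and bars SD (n = 3); the genotypes do not overlap in the values plotted, and WT-Tag has no peak where marked.

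At the 10 H3K4me3 regions of the 4 genes that were in all 6 lists, the median ratio of heights was 1.23, beside 1.25 over the 22592 such regions of the genome. Heights were separate in 7 of the 10, against 33.2% over the genome. Their median ratio of covered bases was 1.58, beside 1.10 over the genome, and bases were separate in 7 of 10, against 37.9%. For FLAG, the 4 genes had 4 regions in all 6 lists, 2 of them separate by bases and 3 by height, where 58.1% and 42.4% of such regions of the genome were. The H3K4me3 height ratios of the 10 regions ranged from 1.11 to 2.58, and the highest, 2.10 and 2.58, were those of Lin28b.

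The lists of the 2 antibodies were compared within each culture. In K27M-Tag, FLAG peaks covered 53.5%, 50.3% and 53.9% of the H3K4me3 bases of Igf2bp3, and 59.0%, 54.4% and 67.6% of those of Hmga2. The shares were lower at Lin28b, at 13.7%, 17% and 27.7%, and at Igf2bp1, at 17.3%, 20.2% and 15.9%. Over the whole lists the share was 28.9% ± 5.59 (SD, n = 3) in K27M-Tag. The 4 genes therefore fell into a pair above that level and a pair below it, and the pair below was the one whose longest H3K4me3 region had no WT-Tag peak. In WT-Tag the share was 8.85%, 15.0% and 26.0% at Igf2bp3 and 2.57%, 27% and 20.0% at Hmga2, against 6.62% ± 1.41 (SD, n = 3) over the whole lists. It was 0 at Lin28b, where WT-Tag had no FLAG peak.

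**Figure D5:**
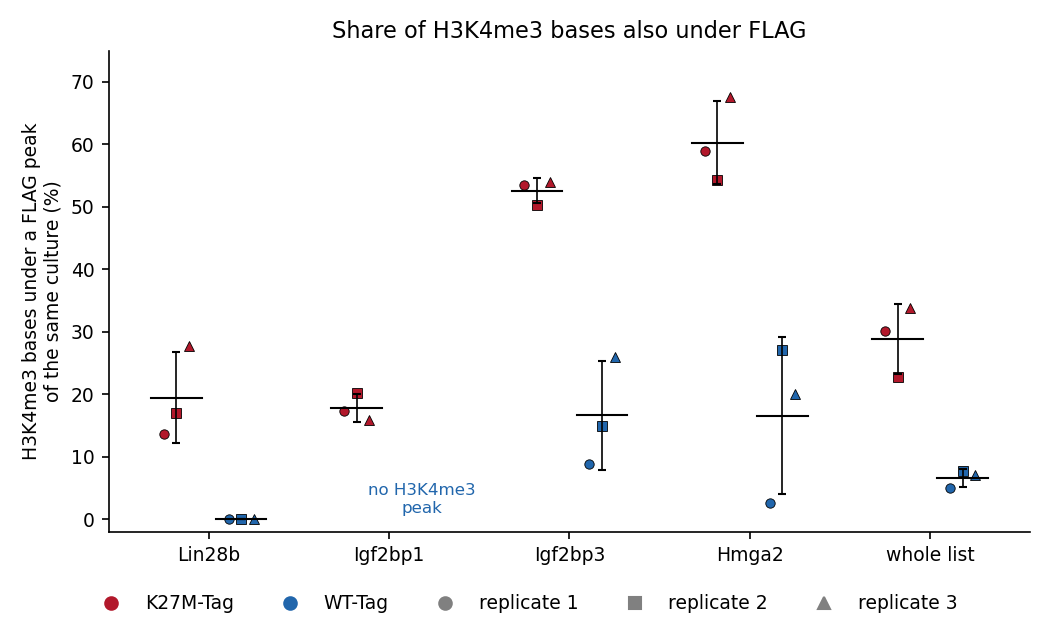
Percent of H3K4me3 bases that also lie under a FLAG peak of the same culture, for each gene window and for the whole lists. Points are cultures, lines means and bars SD (n = 3); in K27M-Tag, Hmga2 and Igf2bp3 sit at 50.3% to 67.6% and Lin28b and Igf2bp1 at 13.7% to 27.7%.

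Read the other way, 40.5% ± 4.53 of the FLAG bases of the 4 genes lay under H3K4me3 in K27M-Tag and 27.5% ± 7.69 in WT-Tag (SD, n = 3). The whole lists gave 30.3% ± 0.142 and 15.3% ± 0.991. At Hmga2 the share was 29.5% ± 4.46 in K27M-Tag and 32.5% ± 21.8 in WT-Tag (SD, n = 3), where the genotypes overlapped. In K27M-Tag, 14, 9 and 15 of the 28, 21 and 26 FLAG peaks of Hmga2 had their summit more than 1000 bp from any H3K4me3 peak. At Lin28b the numbers were 2, 0 and 2 of 6, 4 and 7, and at Igf2bp1 0, 2 and 2 of 4, 6 and 6. At Igf2bp3 they were 13, 4 and 16 of 26, 15 and 31. The same count over all FLAG peaks was not computed. By bases, the Hmga2 share of 29.5% in K27M-Tag was near the 30.3% of the whole lists. FLAG at Hmga2 was spread along the window, as it was at Igf2bp3, and at Lin28b most of it lay near H3K4me3.

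Regions elsewhere in the genome were ranked by the Euclidean distance of their log2 (bases + 1) in all 12 lists from those of each main region. Nearest to Lin28b was chromosome 2 from 151798739 to 151800748, at a distance of 2.21, with H3K4me3 and FLAG in every K27M-Tag list and in no WT-Tag list. The nearest to Igf2bp1, chromosome 2 from 93030863 to 93033270 at 2.89, showed the same presence in the lists. Its H3K4me3 peaks, of 2342, 2260 and 1761 bases, were shorter than those of Igf2bp1. Hmga2 had much closer matches, chromosome 1 from 141317928 to 141323476 at 0.446 and chromosome 10 from 67738311 to 67743582 at 0.468, both with H3K4me3 in 6 lists and FLAG in K27M-Tag alone. For Igf2bp3 the nearest was chromosome 3 from 89027377 to 89032858, at 2.41. The pattern of Hmga2 thus recurs closely elsewhere, and no region came as close to the other 3 genes over these 12 values. A step in a low FLAG count moves a log2 distance more than the same step in a long H3K4me3 peak. The next nearest to Igf2bp3, chromosome 14 from 118629325 to 118637720 at 2.42, held 8140, 7966 and 8272 H3K4me3 bases in K27M-Tag. In WT-Tag that region held 7311, 8119 and 7781 H3K4me3 bases, and 499, 0 and 193 FLAG bases, against 320, 0 and 835 at Igf2bp3.

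The regions just inside and just outside the windows show how the limits bear on the members. Below Lin28b the nearest H3K4me3 region, from 45054799 to 45056706, was in all 6 lists, and above it the nearest, from 45297360 to 45298787, was also in all 6, with means of 1316 bases in K27M-Tag and 1366 in WT-Tag. The nearest FLAG region above Lin28b, from 45220014 to 45220619, had peaks in 3 K27M-Tag and 0 WT-Tag lists. Above Hmga2 the nearest H3K4me3 region, from 119988776 to 119990784, was in all 6 lists. The nearest FLAG regions above the Lin28b and Igf2bp1 windows were thus in the K27M-Tag lists alone, as 9.89% of all FLAG regions were. The nearest FLAG region below Lin28b was in 2 K27M-Tag and 0 WT-Tag lists, and that below Igf2bp1 in 3 and 1. At Igf2bp3 the nearest FLAG region was in 2 K27M-Tag and 0 WT-Tag lists below the window, and in 1 and 0 above it. At Hmga2 it was in 0 K27M-Tag lists and 1 WT-Tag list below the window, and in 1 and 0 above it. For Lin28b and Igf2bp1 the nearest outside H3K4me3 region on the upstream side was present in both genotypes.

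The background coverage recovered from the lists was 2.77 to 3.50 fragments per base for H3K4me3 and 3.09 to 3.60 for FLAG, a value that the scaling and control of the peak caller also set. The lists held 31932 to 38720 H3K4me3 peaks and 32763 to 88285 FLAG peaks. Local background exceeded 1.5 times the coverage at 32.9% to 33.4% of H3K4me3 peaks in WT-Tag and 8.68% to 10.8% in K27M-Tag, which bears on fold and peak width alike, and its part in the differences at the 4 genes was not tested. Sex and genotype are not fully separate, since the male culture is a WT-Tag one, and the part of sex was not tested. With that culture left out, K27M-Tag had more covered bases than WT-Tag at each gene under both antibodies. The genes were chosen on this contrast, and windows without any WT-Tag peak could not change in direction. In neurospheres of mixed cells, more cells with a mark and more mark per cell cannot be told apart.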

How the data were processed

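Peak lists of 12 ChIP-seq libraries from 6 neurosphere cultures were analysed, 1 FLAG and 1 H3K4me3 list per culture, with genotype and replicate number from the labels. BWA 0.7.17-r1188, MACS2 2.2.7.1, bedtools 2.29.2 and the builds mm9 and dm6 are named in the submitters' processing notes; settings, control and threshold are not given in the sources used here. The 2 input samples, each joined over the cultures of a genotype, were not analysed here. Drosophila chromatin was added before the H3K4me3 precipitation, per the labels' protocols, and the lists carry no factor from it.

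The score column as deposited equals −log10 q multiplied by 10, within rounding. The deposited fold is a ratio of summit pileup to local background, and −log10 p and −log10 q are the authors' values, with a lowest −log10 q of 2.00 to 2.05. Peak number and width therefore move with depth and control. For 100% of peaks, the pileup and background were solved from the fold and from the p read as a Poisson tail, within a relative error of 0.0001, a form inferred from the values. The most common local background was taken as library coverage.

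Covered bases, regions merged at 1 bp of overlap and shared bases were computed with Python 3.11.15, numpy 2.4.6 and pandas 2.3.3, and the code was tested on simulated lists. The main region of a gene is the merged H3K4me3 region with the most bases over the 6 lists; the 2 regions most like it were sought over 12 values. The genes, lists and rules were chosen with earlier results of these data known, so no test was run. Alternatives were the top 50% of peaks by score, a −log10 q of at least 5, equal list sizes, peaks joined across 1000 bp, an overlap of 50%, and leaving out each culture. Other pathway genes and cell type markers need positions in mm9 and were not analysed here, so the labelled cell type was not checked.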

Additional observations from a re-analysis of the deposited data

How the results depend on the processing

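No paired analysis was possible because the culture names do not match K27M-Tag cultures with WT-Tag ones, and no test of genotype was run. The antibodies alone were compared within a culture, without a test. The direction of the difference in covered bases, K27M-Tag above WT-Tag, was kept in 80 of 80 alternative values over the 4 genes and both antibodies, 48 of which left out a culture. It could not reverse for Igf2bp1 under either antibody or for Lin28b under FLAG, where WT-Tag had no peak to begin with. The genes were also chosen on this contrast, so the count describes the settings and lends the difference no support. H3K4me3 regions in the K27M-Tag lists alone numbered 7 as deposited, 4 among the top 50% of peaks by score, and 7 to 8 when a culture was left out, beside 4.36%, 6.32% and 5.30% to 7.19% of all regions. The same count for FLAG fell from 18 to 8 with equal list sizes and to 9 with peaks joined across 1000 bp, and was 18 to 27 when a culture was left out, the highest without K27M-Tag replicate 1. The share of all FLAG regions was 9.89% as deposited, 6.09% at equal sizes, 9.39% joined and 11.0% to 18.6% with a culture left out. The H3K4me3 windows without overlap were 3 to 4 of 4, with Hmga2 added without WT-Tag replicate 2 or with joined peaks. The FLAG windows were 4 in each case. Leaving out a culture only eases the rules for separate windows and for regions in the K27M-Tag lists alone. A window separate as deposited thus stays separate by rule, so these counts without a culture do not measure stability. The Hmga2 difference under H3K4me3, 1435 bases, became 574 without WT-Tag replicate 1, 2157 without WT-Tag replicate 2 and 556 with the highest-scoring 50% of peaks. With equal list sizes the FLAG differences were 1394 bases at Lin28b, 1213 at Igf2bp1, 6936 at Igf2bp3 and 10248 at Hmga2, against 2676, 2284, 9922 and 14552 as deposited. The difference in the share of H3K4me3 bases under FLAG, 25.7 percentage points over the 4 genes, was 21.1 to 28.6 when a culture was left out. A place with no peak has no known height, and not a height of 0, since the limit of a list rises with local background.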
